A study of Mus musculus with 2 samples.

Results

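The genes described here encode 10 proteins of neutrophils and their precursors, measured in cultures of mouse bone marrow-derived macrophages. They were chosen by gene symbol, with earlier results of these data known, and fall into 3 classes: Mpo, Elane, Prtn3 and Ctsg of the primary granules, Ltf, Camp, Ngp and Lcn2 of the secondary granules, and S100a8 and S100a9 of the cytosol. All 10 were among the 19505 named genes, each with 1 probe set that shared its values with no other gene. The study compared 2 cultures, 1 array each. Cells labelled LysM (+);MC4RTB/TB, shortened below to LysM (+), were set against cells labelled MC4RTB/TB, so that both groups carry the TB form of MC4R, the melanocortin 4 receptor gene. In background terms, a TB allele carries a transcription-blocking cassette that Cre recombinase can excise, and LysM, the gene Lyz2, is used to drive Cre in myeloid cells, neutrophils and their precursors included, and not in macrophages alone. The labels spell out neither, and they give no age, sex or number of animals. Marrow was grown with M-CSF, the growth factor of the macrophage lineage, added on day 0 and again on day 3 (25 ng/mL), and the experiment began on day 5. With 1 array per group no difference below has a replicate error or a test, the number of arrays limits the precision, and every difference describes these arrays.

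Neutrophils make their granule proteins in waves as they mature in the marrow. Promyelocytes make the peroxidase and serine proteases of the primary (azurophil) granules, later stages make the contents of the secondary (specific) granules under the control of the factor C/EBP epsilon, and S100a8 and S100a9 then fill the cytosol as a calcium-binding heterodimer. RNA of the primary class is therefore a possible sign of early granulocyte precursors, and RNA of the secondary class of later ones. Neither is taken here as proof of such cells or as specific to them. Lcn2, S100a8 and S100a9 are also made by monocytes and macrophages.

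Ltf and Elane were higher in LysM (+) cells, and they came from different granule classes. Ltf was 2.60-fold higher. The fold of Elane, 2.26, is inexact because its value in MC4RTB/TB cells lay among the background controls, and against the highest of them it was 1.77. Of the 10 genes 7 were bright enough to be counted, and of these 2 passed 1.5-fold upwards in LysM (+) cells and 0 downwards. Among all 10137 named genes counted in the same way, 10.9% passed it upwards and 5.16% downwards, and the 2 of 7 is a count of single genes to be read against those shares. Where both values had to lie above all background controls, 6 members were left and Ltf was the 1 counted. A gene was counted when the brighter of its values reached a log2 value of 6.12, called the floor, which is the median over the named probe sets. Values are on the log2 scale of RMA (robust multi-array average), differences are LysM (+) minus MC4RTB/TB on that scale, and levels of different probe sets are not set against each other. In a bulk culture, fewer cells of a type and less RNA per cell cannot be told apart.

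**Figure D1:**
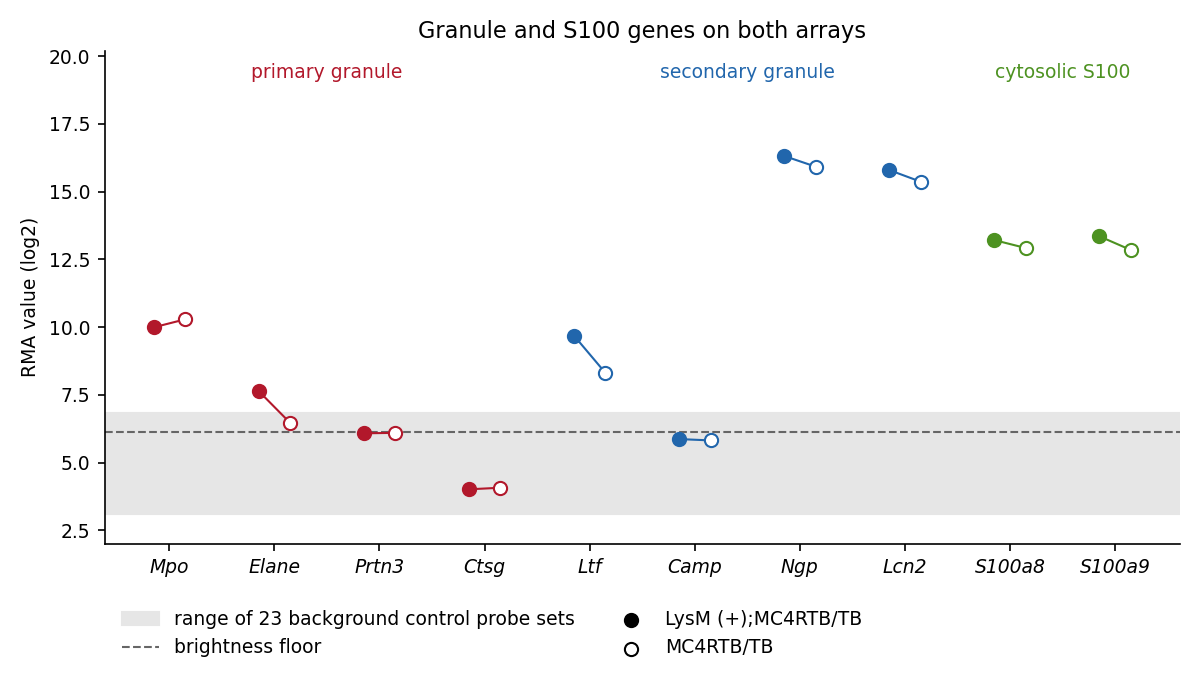
RMA values (log2) of the 10 genes for LysM (+);MC4RTB/TB cells (filled points, left of each pair) and for MC4RTB/TB cells (open points), 1 array each. The grey band spans the 23 background control probe sets, 3.09 to 6.81, and the dashed line is the floor of 6.12. Prtn3, Ctsg and Camp lie inside the band on both arrays, and Elane enters it in MC4RTB/TB cells only.

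The primary granule genes did not move together. Mpo, myeloperoxidase, which makes hypochlorous acid, had a value of 9.99 in LysM (+) cells and 10.29 in MC4RTB/TB cells. That difference of -0.30, or 1.23-fold, left Mpo slightly lower in LysM (+) cells, and 16.8% of the genes at the floor lay as low or lower. Elane, neutrophil elastase, a serine protease that degrades elastin and bacterial proteins, had a value of 7.64 in LysM (+) cells and 6.46 in MC4RTB/TB cells. The difference was 1.18, which 2.35% of the genes at the floor reached. On the MC4RTB/TB array Elane was inside the span of the background controls, which makes its fold inexact. Set against the highest background control of that array, 6.81, the LysM (+) value was 0.83 higher, or 1.77-fold, a step chosen after the data were seen. Prtn3, proteinase 3, a close relative of elastase, had a value of 6.08 in LysM (+) cells and 6.10 in MC4RTB/TB cells. Ctsg, cathepsin G, a serine protease with broader cleavage, had 4.01 in LysM (+) cells and 4.07 in MC4RTB/TB cells. Both genes were below the floor and within the background range on both arrays, so neither was distinguishable from background and their differences of -0.02 and -0.06 say nothing of direction. The median difference of the class was -0.04 over 4 genes, of which Mpo alone was above the highest background control on both arrays. That median lay between the differences of Prtn3 and Ctsg, the genes not distinguishable from background, so it does not describe the class. It also had no stable sign, being 0.0028 with centring, 0.023 with quantile normalization and 0.024 with loess. The mean difference of the 4 genes was 0.20. Over Mpo and Elane, the genes at the floor, the median was 0.44, the midpoint of differences of opposite sign.

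Of the secondary granule genes 3 of 4 were above background, with positive differences, and Ltf alone passed 1.5-fold. Ltf, lactoferrin, which binds iron and so withholds it from bacteria, had a value of 9.69 in LysM (+) cells and 8.31 in MC4RTB/TB cells. Both values were above all background controls, the difference was 1.38, and 1.66% of the genes at the floor reached it. Ngp, neutrophilic granule protein, a relative of the cathelicidins and cystatins, had a value of 16.32 in LysM (+) cells and 15.92 in MC4RTB/TB cells. Lcn2, lipocalin 2, which captures bacterial iron carriers, had a value of 15.80 in LysM (+) cells and 15.37 in MC4RTB/TB cells. Ngp and Lcn2 were thus far above background in both cultures, and their differences of 0.40 and 0.43 were under the 1.5-fold threshold. Differences of that size or more were found in 20.1% and 17.8% of the genes at the floor. Camp, the precursor of the cathelicidin antimicrobial peptide, had values of 5.87 in LysM (+) cells and 5.82 in MC4RTB/TB cells, both below the floor and within the background range. The median difference of the class was 0.41 over 4 genes, against -0.0062 over all named genes and 0.07 over all genes at the floor.

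The cytosolic S100 genes were bright on both arrays and differed little. S100a8 had a value of 13.21 in LysM (+) cells and 12.92 in MC4RTB/TB cells, a difference of 0.29 that 27.9% of the genes at the floor reached. S100a9, whose protein pairs with that of S100a8 to form calprotectin, had a value of 13.35 in LysM (+) cells and 12.85 in MC4RTB/TB cells, a difference of 0.51, or 1.42-fold, that 14.3% of the genes at the floor reached. S100a9 came nearest to the 1.5-fold threshold among the members not counted. The median difference of the pair was 0.40.

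**Figure D2:**
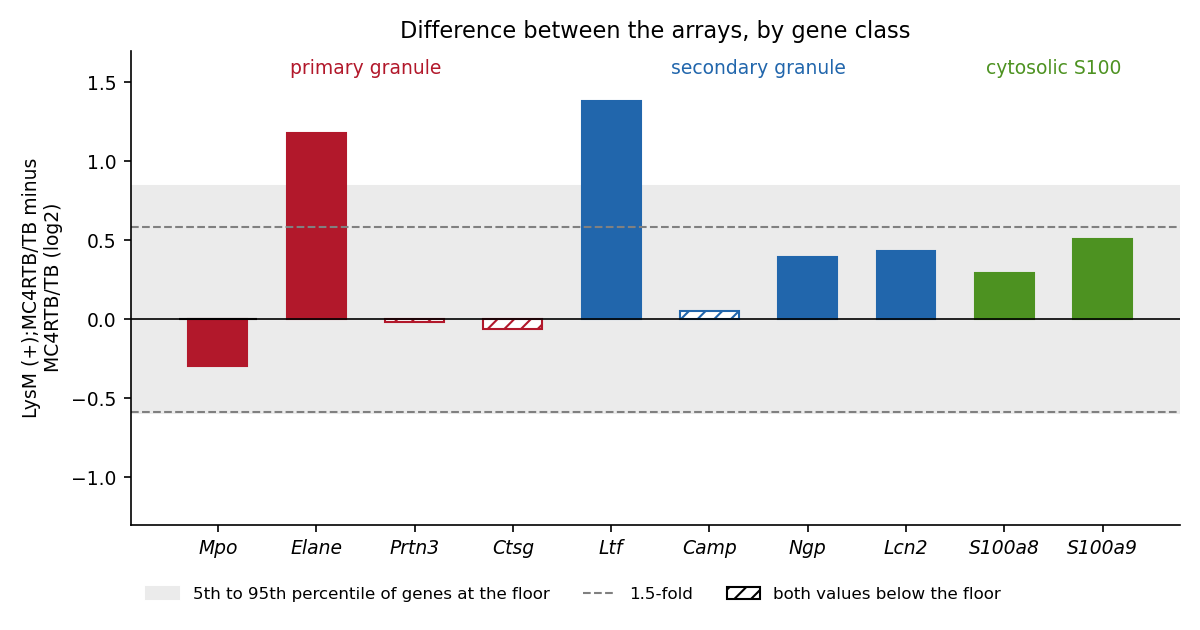
Difference of each gene (LysM (+);MC4RTB/TB minus MC4RTB/TB, log2), coloured by class, with 1 array per group and so no error bars. The grey band holds the 5th to 95th percentile of all genes at the floor, -0.59 to 0.84, and the dashed lines mark 1.5-fold. Ltf (1.38) and Elane (1.18) lie above the band, and Mpo (-0.30) is the only gene at the floor below 0.

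Among the genes at the floor, the signs were as follows. All 3 secondary granule genes at the floor and both S100 genes had positive differences, from 0.29 to 1.38. The primary granule class had 1 gene at the floor on each side of 0, Elane above it and Mpo below. Leaving aside Ltf and Elane, the 5 members at the floor had differences between -0.30 and 0.51, within the band that holds the central 90% of genes at the floor.

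**Figure D3:**
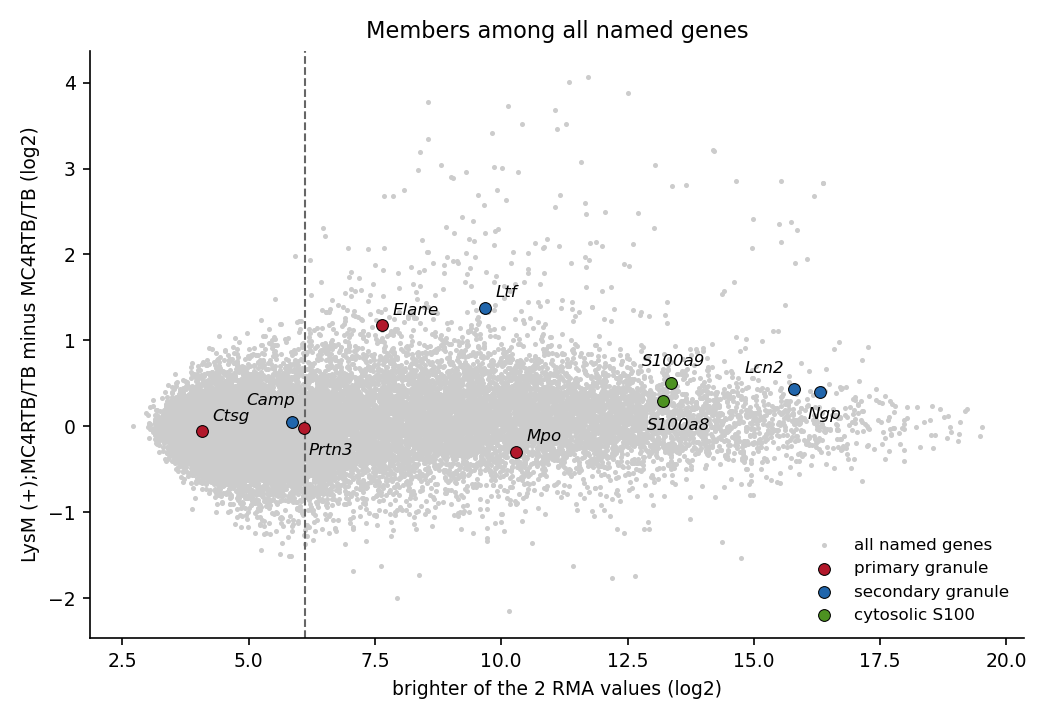
Difference of every named gene (LysM (+);MC4RTB/TB minus MC4RTB/TB, log2) against the brighter of its values (log2), 19505 genes in grey, with the 10 granule and S100 genes coloured by class. The dashed line is the floor of 6.12. Ltf and Elane lie in the upper part of the cloud, with other genes well above them, and the other members at the floor lie nearer its middle.

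The nearest measured neighbours of Elane and Ltf on the chromosome that reached the floor did not share their differences. Those below the floor on both arrays, Prtn3 and Rtp3, could not be judged. Elane and Prtn3 are next to each other on chromosome 10, yet Elane was counted and Prtn3 was in the background range. Med16, a Mediator subunit gene and the nearest measured gene on the other side of Elane, had a difference of 0.11. Ltf, on chromosome 9 like Camp and Ngp, has as its nearest measured neighbours Rtp3, below the floor on both arrays, and Ccrl2, a chemerin-binding receptor gene, which was lower in LysM (+) cells with a difference of -0.60. S100a8 and S100a9 are neighbours on chromosome 3 within the S100 cluster and had differences of the same sign. The neighbours were taken from the RefSeq gene table and were not chosen by their values.

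Promoter sequence from RefSeq (GRCm38.p6) was at hand for all 10 genes. The 250 bases before the start are shown for Ltf and Elane, the genes counted as higher, for Prtn3, the neighbour of Elane that was not distinguishable from background, and for Mpo, the gene with the opposite sign. They lie at chr9:111019042-111019291 (Ltf), chr10:79886062-79886311 (Elane), chr10:79879417-79879666 (Prtn3) and chr11:87793534-87793783 (Mpo), all on the plus strand. Capitals mark matches on either strand to GCAAT, a core of the sites of C/EBP factors, which drive granulocyte genes, and to GAGGAA, a core of the sites of PU.1, the main factor of the myeloid lineage. On the minus strand these read ATTGC and TTCCTC.
Ltf: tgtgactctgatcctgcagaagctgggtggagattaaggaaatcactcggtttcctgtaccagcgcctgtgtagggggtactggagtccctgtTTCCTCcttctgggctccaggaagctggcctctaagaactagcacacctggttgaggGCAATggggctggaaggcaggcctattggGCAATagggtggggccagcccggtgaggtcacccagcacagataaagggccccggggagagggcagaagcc
Elane: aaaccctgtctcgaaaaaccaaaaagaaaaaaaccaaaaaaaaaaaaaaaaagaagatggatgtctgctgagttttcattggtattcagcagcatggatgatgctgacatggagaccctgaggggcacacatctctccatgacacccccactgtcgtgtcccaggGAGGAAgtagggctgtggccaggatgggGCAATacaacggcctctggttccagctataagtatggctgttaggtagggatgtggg
Prtn3: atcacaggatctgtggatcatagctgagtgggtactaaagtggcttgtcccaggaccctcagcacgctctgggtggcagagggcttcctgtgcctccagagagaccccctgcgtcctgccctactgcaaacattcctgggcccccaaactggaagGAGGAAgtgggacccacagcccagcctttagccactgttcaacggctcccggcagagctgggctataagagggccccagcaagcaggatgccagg
Mpo: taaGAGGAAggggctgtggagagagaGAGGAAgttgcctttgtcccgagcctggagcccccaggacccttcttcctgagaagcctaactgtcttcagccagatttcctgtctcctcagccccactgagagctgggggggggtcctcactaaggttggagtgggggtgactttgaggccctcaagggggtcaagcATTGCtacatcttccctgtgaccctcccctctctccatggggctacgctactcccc
In the Elane promoter the match to the PU.1 core begins 85 bases and the match to the C/EBP core 57 bases before the start. Prtn3 has the PU.1 core at a similar place, 95 bases before the start, and no match to the C/EBP core in this window. Ltf has matches to the C/EBP core 100 and 71 bases before the start, and Mpo has 1 match to it, 56 bases before the start.

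Over the whole window, which runs from 250 bases before to 50 bases after the start, 8 of the 10 genes held GCAAT, against 26.4% of all 32851 RefSeq promoter windows. GAGGAA was present in 7 of 10 genes, against 28.3% of all windows, and both motifs together in Mpo, Elane, Ltf, Lcn2 and S100a8, against 7.77% of all windows. The RUNX core TGTGGT was present in 3 genes (16.8% of windows) and the TATA box sequence TATAAA in 3 genes (13.6%). TATAAA lay 30 bases before the start in S100a8, 237 before it in Ctsg (minus strand) and at the start in S100a9. The MYB core AACNG was present in all 10, which says little because 80.3% of windows hold it. Each motif was searched on both strands, and among the members the sole overlap between different motifs was that of AACNG and GAGGAA in the Ltf window. Genes with both C/EBP and PU.1 cores included the counted genes Ltf and Elane and also Mpo, whose difference was negative. Mpo was the only member at the floor below 0, so separation of the members by sign could not be judged. A link between the motifs and the differences was not tested. A match is a description of the sequence and not a measured binding site.

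**Figure D4:**
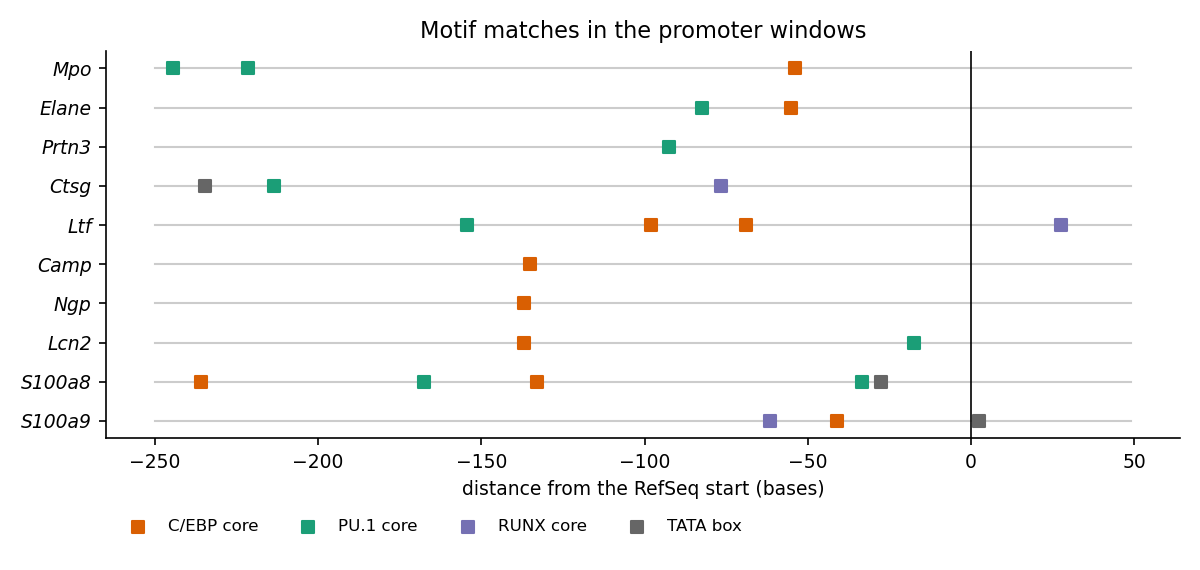
Matches to the C/EBP, PU.1 and RUNX cores and to the TATA box sequence TATAAA, wherever it lay, in the promoter window of each gene, by distance from the RefSeq start in bases, on either strand. Coloured squares are matches, and the vertical line is the start. A match to the C/EBP core is present in 8 genes and absent from the windows of Prtn3 and Ctsg.

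The other genes of granules and granulocytes were taken from further lists. Of the 12 other genes of primary granules and promyelocytes 9 reached the floor, 0 passed 1.5-fold upwards in LysM (+) cells and 1 downwards. Over all genes at the floor, 10.9% passed upwards and 5.16% downwards. The lower gene was Hdc, which makes histamine, at 8.06 in LysM (+) cells and 8.65 in MC4RTB/TB cells. Ctsc, the peptidase that activates the granule serine proteases, had 16.94 in LysM (+) cells and 16.90 in MC4RTB/TB cells. Srgn, the proteoglycan that packs them, had 15.61 in LysM (+) cells and 15.34 in MC4RTB/TB cells, so neither reached 1.5-fold. The median difference was 0.08 over the 12 genes, of which 4 were not above the background range on either array. Over the 9 genes at the floor it was 0.05.

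Later granules were covered by a second list. Of 21 measured genes of secondary and tertiary granules and vesicles 14 reached the floor, 6 of these passed 1.5-fold upwards and 0 downwards, where 10.9% and 5.16% of all genes at the floor did. The median difference was 0.24 over the 21 genes, of which 9 were not above the background range on either array. Retnlg, a resistin-like protein of neutrophils, had 7.62 in LysM (+) cells and 6.29 in MC4RTB/TB cells. Mmp9, the gelatinase of tertiary granules, had 6.45 in LysM (+) cells and 5.30 in MC4RTB/TB cells. Pglyrp1, a protein that binds bacterial cell walls, had 7.90 in LysM (+) cells and 6.76 in MC4RTB/TB cells. Adam8, a membrane protease that macrophages also make, had 15.48 in LysM (+) cells and 14.37 in MC4RTB/TB cells. Of these, Retnlg and Pglyrp1 were within the background range in MC4RTB/TB cells and Mmp9 on both, so of these 4 only Adam8 had a fold (2.16) with both values above the background range. The remaining genes of the 6, named after their values were seen, were Mmp8, the neutrophil collagenase, with a difference of 0.98, and Hp, haptoglobin, with 0.65, both above the background range on both arrays.

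Of 20 measured genes of the neutrophil surface and of maturation 14 reached the floor, 1 passed 1.5-fold upwards in LysM (+) cells and 3 downwards, where 10.9% and 5.16% of all genes at the floor did. The median difference was -0.15 over the 20 genes, of which 10 were not above the background range on either array. At 2-fold the counts were 0 and 0. Csf3r, the G-CSF receptor that drives granulocyte production, had 12.65 in LysM (+) cells and 13.22 in MC4RTB/TB cells, a difference of -0.57 that fell just short of 1.5-fold. Cxcr2, the receptor for neutrophil-attracting chemokines, was higher with a difference of 0.71 and did not rise above the background range on either array. The lower genes were Itgal, the LFA-1 alpha chain (-0.95), Clec4e, a receptor for mycobacterial glycolipid (-0.74), and Trem1, an activating receptor (-0.79), which was within the background range on both arrays. Ly6g, the usual surface marker of mouse neutrophils, was not analysed here.

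Among 14 measured transcription factors of the granulocyte lineage 11 reached the floor, 2 passed 1.5-fold upwards and 1 downwards, where 10.9% and 5.16% of all genes at the floor did. The median difference was 0.05. Cebpe, the factor of secondary granule genes, had 4.05 in LysM (+) cells and 3.99 in MC4RTB/TB cells, below the floor and within the background range on both. Gfi1, a repressor needed for neutrophil development, had 5.60 in LysM (+) cells and 6.62 in MC4RTB/TB cells, a difference of -1.03 within the background range. The higher genes were Gfi1b, a relative of Gfi1 that acts in erythroid and megakaryocyte cells (0.76), whose value in MC4RTB/TB cells was in the background range, and Cbfb, the partner of RUNX factors (0.67).

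**Figure D5:**
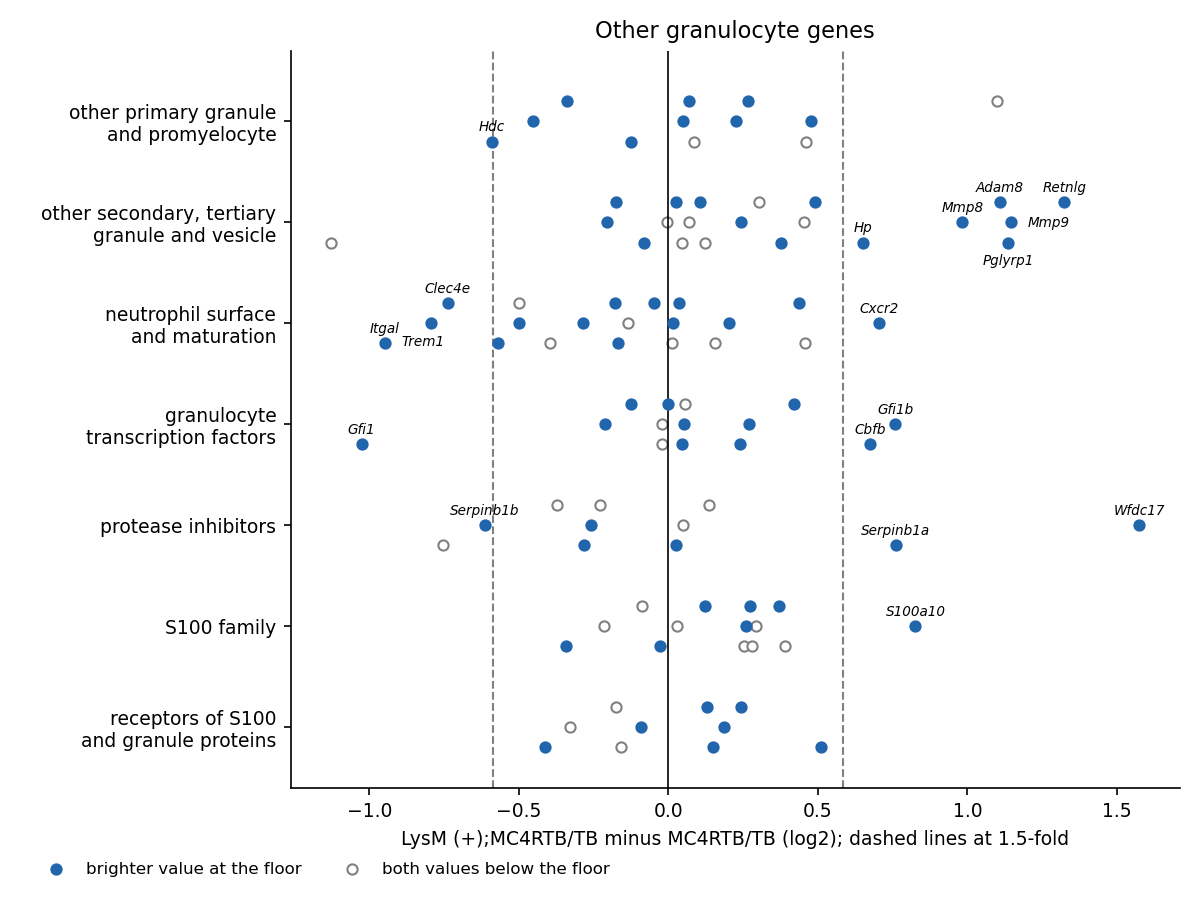
Difference of each measured gene of 7 further lists (LysM (+);MC4RTB/TB minus MC4RTB/TB, log2), with 1 point per gene, filled where the brighter value reached the floor and open where both values were below it. Dashed lines mark 1.5-fold, and genes counted beyond it are named. The list of secondary and tertiary granule and vesicle genes has 6 counted genes on the right and 0 on the left, and the list of surface and maturation genes has 1 on the right and 3 on the left.

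Inhibitors, relatives and receptors of these proteins were counted in the same way. Of 11 measured protease inhibitors 6 reached the floor, and 3 of these passed 1.5-fold, 2 upwards and 1 downwards, where 16.1% of all genes at the floor passed in either direction. The median difference of the 11 inhibitors was -0.23, but 6 of them were not above the background range on either array. Over the 6 inhibitors at the floor the median was -0.12, with 3 positive and 3 negative differences. Serpinb1a, the main inhibitor of elastase, proteinase 3 and cathepsin G inside cells, had 8.31 in LysM (+) cells and 7.55 in MC4RTB/TB cells, 1.69-fold higher. Wfdc17, a whey acidic protein-type gene of macrophages, had 14.41 in LysM (+) cells and 12.83 in MC4RTB/TB cells, 2.98-fold higher. The lower gene was Serpinb1b, a relative of Serpinb1a, with a difference of -0.61 within the background range. Of 14 measured relatives of S100a8 and S100a9 7 reached the floor, and S100a10, the partner of annexin A2, was the sole one past 1.5-fold, at 11.10 in LysM (+) cells and 10.27 in MC4RTB/TB cells. The median difference of that family was 0.26, both over the 14 genes and over the 7 at the floor. The other 7 were not above the background range on either array. Of 10 measured receptors of S100 and granule proteins 7 reached the floor and 0 differed by 1.5-fold in either direction. The median difference of the 10 receptors was 0.02, but 3 of them were not above the background range on either array. Over the 7 receptors at the floor the median was 0.15, with 5 positive and 2 negative differences.

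Markers of other cells moved beside these genes, and their part in the differences was not tested. Counts of markers past 1.5-fold are to be read against all genes at the floor, of which 10.9% passed upwards and 5.16% downwards. All 12 measured macrophage markers reached the floor, with values from 12.41 to 18.86 (median 15.96) in LysM (+) cells and from 12.82 to 19.04 (median 16.02) in MC4RTB/TB cells, and 0 differed by 1.5-fold, so markers of the labelled cell type were bright on both arrays. Of 8 measured monocyte markers, 7 had positive differences and 1 was counted as higher, Cx3cr1, the fractalkine receptor gene, with a difference of 1.90. Their values ran from 6.18 to 15.15 in LysM (+) cells and from 5.61 to 15.05 in MC4RTB/TB cells, with a median difference of 0.38, beside 0.41 and 0.40 for the secondary granule and S100 genes. Of 7 measured markers of early progenitors 2 reached the floor, and values ran from 3.87 to 7.47 in LysM (+) cells and from 3.77 to 7.05 in MC4RTB/TB cells. Of 11 measured neutrophil markers outside the 10 genes, which overlap with the lists above, 7 reached the floor, 4 were counted as higher (Mmp8, Mmp9, Retnlg and Cxcr2) and 1 as lower (Gfi1), and of all 11 Csf3r and Mmp8 were the 2 above the background range on both arrays. Their values ran from 4.05 to 12.65 in LysM (+) cells and from 3.96 to 13.22 in MC4RTB/TB cells. All 9 measured proliferation genes were counted as higher, with values from 8.56 to 16.59 in LysM (+) cells and from 5.22 to 15.69 in MC4RTB/TB cells and a median difference of 3.34. The largest difference among the 10 granule and S100 genes, 1.38, was smaller than that median. Mast cell and basophil markers, which include proteases related to Ctsg, had 0 of 10 genes at the floor. Of 7 measured markers of eosinophils, the other granulocytes with large granules, 2 reached the floor and 1 was counted as higher, the eotaxin receptor gene Ccr3 (1.19). All 5 measured megakaryocyte and platelet markers reached the floor, with values from 6.82 to 12.17 in LysM (+) cells and from 6.89 to 10.94 in MC4RTB/TB cells. Of these 5 markers 2 had positive and 3 negative differences, with a median of -0.07. The platelet chemokine genes Ppbp (2.16) and Pf4 (1.23) were counted as higher, Ppbp with a larger difference than any granule or S100 gene. Vwf, von Willebrand factor, was counted as lower (-0.91). Also counted as lower were Tfrc, the transferrin receptor gene of the erythroid list (-0.81), and Col1a2, a collagen gene of the stromal list (-0.61). Mc4r, with 4.45 in LysM (+) cells and 4.57 in MC4RTB/TB cells, was within the background range and gave no check of the genotype labels, and Lyz2, the lysozyme gene, had 18.86 in LysM (+) cells and 19.04 in MC4RTB/TB cells.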

How the data were processed

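The authors deposited RMA values on a log2 scale for each probe set of a whole-transcript array, from Affymetrix Expression Console according to the submitters' processing notes. RMA removes background, brings arrays to a common distribution and combines the probes of a set. Versions, genome build and log base: not given in the sources used here. Base 2 was taken from the method. The highest value on either array was 19.51, which is high for RMA, so folds depend on that base and directions do not. No detection calls were used, and signal over background was judged from 23 background control probe sets, which moved by no more than 0.09 from one array to the other. Another set of controls, 63 ERCC (external RNA) probe sets, moved by up to 0.48, more than the differences of Mpo, Ngp, Lcn2 and S100a8.

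Of 28846 probe sets 19572 had a gene in the platform annotation that matched the RefSeq table by gene ID, and these are the named ones. All named ones matched the RefSeq table by gene ID. A gene's value is the mean of its probe sets. Groups follow the genotype label. With 1 array per group no test was run: a gene was counted at 1.5-fold when its brighter value reached the floor of 6.12. The counting code was run on simulated data with planted changes larger than any member difference. That run says nothing of how the counting performs near 1.5-fold. The members and lists were chosen with earlier results of these data known. The genes named are the members, up to 4 counted genes of each list with the largest difference, and Csf3r, Ly6g, Cebpe, Gfi1, Ctsc, Serpinb1a, Srgn, Lyz2 and Mc4r. Motifs were searched in RefSeq promoter windows, and a planned comparison of the proteins was not made. Alternatives were centring, quantile normalization, loess (span 0.4), the brightest probe set, and other floors and thresholds. Python 3.11.15, pandas 2.3.3 and statsmodels 0.14.6 were used.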

Additional observations from a re-analysis of the deposited data

How the results depend on the processing

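Ltf and Elane were the members counted as higher, and 0 members as lower, under centring, quantile normalization, loess, the brightest probe set, the other planned floors and a 2-fold threshold. At a fold threshold midway between 1 and 1.5, 5 members were counted as higher, Ngp, Lcn2 and S100a9 being added, against 25.5% of all genes at the floor. With both values required above the highest background control, a rule chosen after seeing the data, 1 of 6 members was counted, Ltf, against 10% of genes, and with Elane in MC4RTB/TB cells set to that control its difference was 0.83. The difference of Mpo was -0.40 with quantile normalization and -0.39 with loess, and that of Lcn2 was 0.33 with quantile normalization. The median of the primary granule class, -0.04, was set by Prtn3 and Ctsg in the background range and had no stable sign. It was 0.0028 with centring, 0.023 with quantile normalization and 0.024 with loess, and the mean was 0.20. The secondary class had a mean of 0.56. At 2-fold the counts became 0 for lower genes in the other primary granule list, 0 higher and 0 lower for surface and maturation genes, 0 higher for transcription factors, 1 higher and 0 lower for protease inhibitors and 0 higher for the S100 family. Quantile normalization left 0 lower protease inhibitors. The remaining 88 of the recomputed values stayed within 0.09 log2 units, the largest difference of a background control between the arrays, or within 1.5 times the count. The cause of these changes was not tested beyond what each alternative does by construction. No paired analysis was possible because each group has 1 array. For Prtn3, Ctsg and Camp the signal over background limits what can be said, and no value here has a replicate error.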
